A study of Mus musculus with 4 samples.

Results

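Cytotoxic lymphocytes kill with granules that hold granzymes, which are serine proteases, and perforin, which opens the way for them into the target cell. Serglycin, a proteoglycan with negatively charged chains, packs these proteins in the granule. Granule membrane proteins such as Nkg7 take part in their release, and serpins in the cytosol of the killer cell inhibit granzymes that leak. The 10 genes described here cover these roles. They are the granzyme genes Gzma, Gzmb, Gzmc, Gzmk and Gzmm, the perforin gene Prf1, the membrane protein gene Nkg7, the serglycin gene Srgn, the cathepsin W gene Ctsw and the serpin gene Serpinb9. They were taken by gene symbol from a table of 17454 gene rows, in which each of the 10 has 1 row.

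RNA had been sequenced from T cells of the mouse liver that were sorted as live cells carrying CD45 and CD3 but none of NK1.1, CD4 and CD8, called double negative T cells. There were 2 libraries from adult C57BL/6 mice fed a methionine-choline deficient diet and 2 from mice of the same strain and stage fed a normal diet. The deficient diet is a common mouse model of fatty liver with inflammation. The sources used here state neither how long it was fed nor whether each library is 1 animal or a pool, so p-values measure the spread between these libraries, which may be technical. The comparison asked how gene expression in these cells differed between the diets. Values were taken as FPKM, fragments scaled by transcript length and by sequencing depth, so levels can be set side by side between genes.

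The T cell gene Cd3e stood at 496.1 and 700.3 FPKM in the deficient diet libraries, against 460.0 and 348.3 FPKM with the normal diet. It is 1 of 3 genes in a list of 10 T cell genes with both deficient diet libraries above both normal diet libraries. In the other 7, which include Cd3d (log2 change -0.24), Cd3g (-0.42) and Ptprc (-0.75), both lay below. Over all genes tested, both lay above in 30.7% and both lay below in 25.5%. Genes of the markers sorted out were detected. Cd4 had 0.618 and 2.44 FPKM on the deficient diet and 3.86 and 4.11 FPKM on the normal diet. Cd8a had 0.836 and 1.42 FPKM on the deficient diet, against 22.4 and 8.26 FPKM on the normal diet, and Cd8b1 had 13.4 and 14.0 FPKM on the deficient diet, against 25.2 and 19.3 FPKM on the normal diet. Klrb1c, the gene of NK1.1, had 5.34 and 2.96 FPKM on the deficient diet, against 18.3 and 13.8 FPKM on the normal diet. In bulk RNA, fewer cells of a type and less RNA per cell cannot be told apart.

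Several genes that carry out the killing were lower on the deficient diet, while the packing gene Srgn overlapped between the diets. Serpinb9, a protecting gene, was lower in both deficient diet libraries, with a log2 change of -0.30 that did not pass the test. The protease genes Gzmb and Gzma and the membrane protein gene Nkg7 fell. Prf1 and Gzmk had lower values on the deficient diet that did not pass the test. Of the 10 genes, 9 reached the filter of at least 1 FPKM in at least 2 libraries, all of them with at least 1 FPKM in every library, and Gzmm did not. Of these 9, 3 fell and none rose at an adjusted p of 0.05 in limma, fitted over 10423 genes, of which 2.74% were called in either direction and 1.53% lower. Over the 9 genes the median log2 change, deficient minus normal diet, was -1.77, against 0.040 over all genes tested. Both deficient diet libraries lay below both normal diet libraries in 8 of the 9, as they did for 25.5% of all genes tested, and no gene of the 9 had both above, as 30.7% of all genes tested did.

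**Figure D1:**
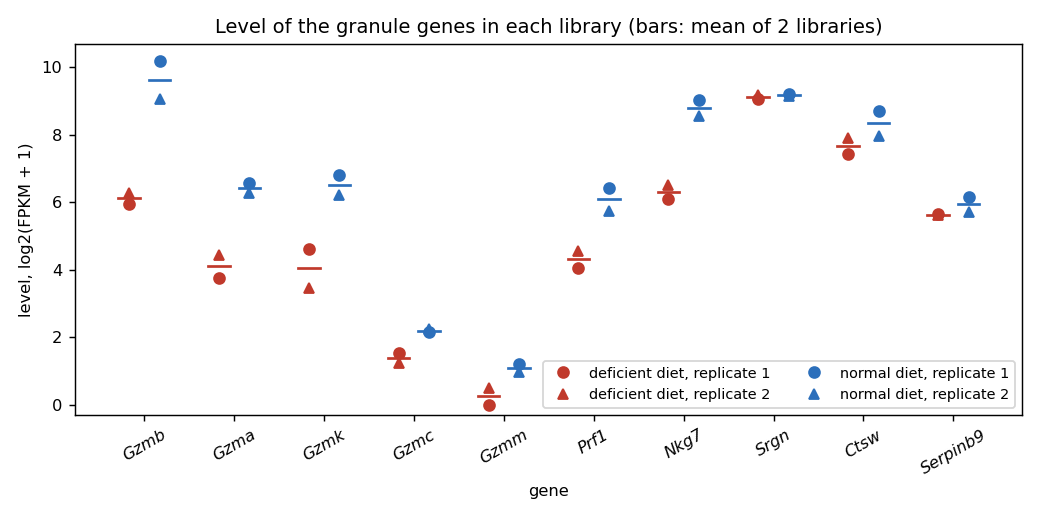
Level of each granule gene as log2(FPKM + 1) in each library, deficient diet in red and normal diet in blue, with a bar at the mean of the 2 libraries. Gzmb, Gzma, Gzmk, Prf1 and Nkg7 are widely separated between the diets, and Srgn lies at about the same height in all 4 libraries.

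Granzyme B, the product of Gzmb, cleaves proteins after aspartate and sets off caspases in the target cell. Gzmb had 60.8 and 76.6 FPKM in the deficient diet libraries and 1154 and 529.3 FPKM in the normal diet libraries. Its lower normal diet library was 6.91-fold above its higher deficient diet library, and the normal diet libraries differed 2.18-fold from each other. The mean was 68.7 ± 11.2 FPKM on the deficient diet and 841.8 ± 442 FPKM on the normal diet (SD, n = 2 each, as for all means here). Gzmb fell by 3.50 ± 0.40 (SE) on the log2(FPKM + 1) scale, with a limma adjusted p of 0.0359. Of the 10423 genes tested, 15 had a more negative log2 change. Counted from the most abundant gene, Gzmb ranked 1221 and 948 in the deficient diet libraries and 34 and 77 in the normal diet libraries.

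Granzymes A and K are trypsin-like proteases, and their genes are neighbours on mouse chromosome 13. Gzma had 12.5 and 20.7 FPKM in the deficient diet libraries and 94.5 and 75.3 FPKM in the normal diet libraries. Gzma fell by 2.32 ± 0.28 (SE) in log2 units (adjusted p = 0.0376). Gzmk had 23.3 and 10.05 FPKM on the deficient diet, where it was lower in the library in which Gzma was higher, and 111.3 and 72.3 FPKM on the normal diet. Its log2 change of -2.47 ± 0.44 (SE) was of similar size to that of Gzma, but with a wider error it missed the threshold (adjusted p = 0.0604). Per 100 FPKM of Gzmk there were 53.7 and 206.0 FPKM of Gzma in the deficient diet libraries and 85.0 and 104.2 FPKM in the normal diet libraries, ratios that overlap between the diets.

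The remaining granzyme genes were low in all libraries. Gzmc, a mouse granzyme gene that lies beside Gzmb on chromosome 14, had 1.90 and 1.33 FPKM on the deficient diet and 3.47 and 3.68 FPKM on the normal diet. Its log2 change of -0.82 ± 0.26 (SE) did not pass (adjusted p = 0.162). Gzmm, whose protein cleaves after methionine or leucine, was listed at 0 and 0.407 FPKM on the deficient diet, against 1.30 and 0.951 FPKM on the normal diet, and was not tested. Summed over all 5 granzyme genes, the level was 98.5 and 109.1 FPKM in the deficient diet libraries and 1365 and 681.5 FPKM in the normal diet libraries. Gzmb made up 61.8% and 70.2% of that sum on the deficient diet and 84.6% and 77.7% on the normal diet. The other granzyme genes of the chromosome 14 cluster, Gzmd, Gzme, Gzmf, Gzmg and Gzmn, stood at 0.259 FPKM or less in every library. Reads of close copies can be misassigned. In the GENCODE vM21 transcripts, which are not the authors' annotation, 99% of the sequence words of 36 bases of Gzmb and 88% of those of Gzmc occur in no other gene, against 100% for Gzma, Gzmk and Gzmm.

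Perforin, encoded by Prf1, is the pore-forming protein of the granule. Prf1 had 15.6 and 22.5 FPKM in the deficient diet libraries and 84.3 and 52.4 FPKM in the normal diet libraries. The diets did not overlap, and the means of 19.1 ± 4.92 FPKM on the deficient diet and 68.3 ± 22.6 FPKM on the normal diet stood 3.58-fold apart. The log2 change of -1.77 ± 0.31 (SE) did not pass (adjusted p = 0.0573). With quantile normalization Prf1 and Gzmk passed (adjusted p = 0.0427 and 0.0412), and Prf1 passed without normal diet replicate 2 (adjusted p = 0.0344). Over 14 alternatives the adjusted p ran from 0.0344 to 0.254 for Prf1 and from 0.0412 to 0.252 for Gzmk.

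Nkg7 encodes a protein of the granule membrane that takes part in degranulation. It had 67.5 and 89.6 FPKM on the deficient diet and 523.8 and 372.9 FPKM on the normal diet. For Nkg7 the nearest libraries of the diets lay 4.16-fold apart, while the libraries of the deficient diet differed 1.33-fold and those of the normal diet 1.40-fold. Nkg7 fell by 2.49 ± 0.24 (SE) in log2 units (adjusted p = 0.0323). Of the 9 genes tested, Nkg7 alone also passed in limma without the mean-variance trend (adjusted p = 0.0490), where Gzmb had an adjusted p of 0.0513 and Gzma of 0.0535.

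Whether Gzmb, Gzma and Nkg7 passed depended on the libraries used. None of the 3 passed without normal diet replicate 1 (adjusted p = 0.0641 for Gzmb, 0.0951 for Gzma and 0.0750 for Nkg7). None passed without deficient diet replicate 1 (adjusted p = 0.110, 0.0881 and 0.0906 in the same order) or without deficient diet replicate 2 (0.245, 0.231 and 0.231). In those 3 fits no gene of the whole table passed in limma, while 1670, 2029 and 1337 genes had an unadjusted p under 0.05. Without normal diet replicate 2 all 3 passed (adjusted p = 0.0169 for Gzmb, 0.0344 for Gzma and 0.0209 for Nkg7), with 352 genes over the table. Each of the 4 fits takes the spread from 1 diet alone. Over 14 alternatives the log2 changes kept their direction, from -4.06 to -2.94 for Gzmb, -2.66 to -1.98 for Gzma and -2.74 to -2.25 for Nkg7. Their adjusted p ran from 0.0169 to 0.245, from 0.0252 to 0.231 and from 0.0166 to 0.231.

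The sequences before the starts of the genes that fell, and of Prf1, are shown because regulators of killing genes are known to act in this stretch. Those regulators include T-box factors such as T-bet and Eomes, Runx factors and AP-1. Each line holds the 250 bases before the RefSeq start (build GRCm38.p6), read along the gene's strand, and capitals mark the letters searched for on both strands. These were GGTGTG, a T-box core, TGTGGT, a Runx core, TGANTCA for AP-1 and TGACGT, a cAMP response element core. The windows lie at chr14:56262335-56262584 (minus strand) for Gzmb, chr13:113100982-113101231 (minus strand) for Gzma, chr7:43436888-43437137 (plus strand) for Nkg7 and chr10:61297586-61297835 (plus strand) for Prf1.
Gzmb: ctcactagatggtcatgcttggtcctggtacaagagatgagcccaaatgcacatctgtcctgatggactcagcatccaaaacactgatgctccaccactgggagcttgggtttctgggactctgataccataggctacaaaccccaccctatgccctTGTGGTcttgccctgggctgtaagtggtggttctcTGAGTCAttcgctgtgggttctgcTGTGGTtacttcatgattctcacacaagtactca
Gzma: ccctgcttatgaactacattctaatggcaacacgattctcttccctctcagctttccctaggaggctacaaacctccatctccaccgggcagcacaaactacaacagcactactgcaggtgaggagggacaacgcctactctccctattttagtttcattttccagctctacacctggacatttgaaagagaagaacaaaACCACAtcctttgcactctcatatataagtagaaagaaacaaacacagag
Nkg7: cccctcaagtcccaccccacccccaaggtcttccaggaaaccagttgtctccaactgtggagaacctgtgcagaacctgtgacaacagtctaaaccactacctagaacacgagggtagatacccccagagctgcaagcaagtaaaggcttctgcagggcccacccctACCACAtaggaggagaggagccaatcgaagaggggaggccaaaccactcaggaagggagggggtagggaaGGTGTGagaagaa
Prf1: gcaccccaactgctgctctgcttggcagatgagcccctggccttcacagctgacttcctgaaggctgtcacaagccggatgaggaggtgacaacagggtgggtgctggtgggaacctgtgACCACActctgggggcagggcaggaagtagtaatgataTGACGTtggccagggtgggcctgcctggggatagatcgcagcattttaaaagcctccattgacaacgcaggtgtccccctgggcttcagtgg
The Gzmb window holds TGTGGT from 93 and from 34 bases before the start, and TGAGTCA from 58 bases between them. The Gzma window holds ACCACA, the Runx letters on the other strand, from 50 bases. The Nkg7 window holds ACCACA from 83 bases and GGTGTG from 13 bases, and the Prf1 window holds ACCACA from 130 bases and TGACGT from 92 bases.

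RefSeq windows were found for 9 of the 10 genes, 11 windows in all. The Runx letters occur in 7 of the 11 and in 14% of all 32851 windows. The T-box letters occur in 4 of the 11 and in 16.3% of all, the AP-1 letters in 1 and in 6.75%, and the TGACGT letters in 3 and in 6.47%. The Runx letters also lie before Gzmc and Gzmm, and before a start of Srgn (chr10:62507758-62508007, minus strand), genes that did not pass or were not tested, and the T-box letters before Gzmk, Gzmm and Serpinb9. None of these letters overlapped those of another search, apart from TGACGT read on both strands before Gzmc. A match describes the letters and does not show that a factor binds there.

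Serglycin, the packing proteoglycan, is made by many blood cells. Srgn had 532.3 and 578.0 FPKM in the deficient diet libraries and 585.7 and 560.3 FPKM in the normal diet libraries. The diets overlapped, and the 4 libraries lay within a narrow range. The log2 change was -0.05, with a 95% interval from -0.41 to 0.31 (adjusted p = 0.880), an interval that does not reach the log2 changes of Gzmb or Nkg7. Myeloid cells also express Srgn, and the summed level of 13 macrophage and neutrophil genes was 1598 and 1007 FPKM on the deficient diet and 192.7 and 2818 FPKM on the normal diet. The part of such cells in the level of Srgn was not tested.

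Cathepsin W is a papain-like protease of cytotoxic lymphocytes. Ctsw had 170.7 and 235.4 FPKM on the deficient diet and 412.0 and 248.9 FPKM on the normal diet. The nearest libraries of the diets were 1.06-fold apart, and the log2 change of -0.67 ± 0.30 (SE) did not pass (adjusted p = 0.277). Serpinb9 encodes a serpin that inhibits granzyme B and so protects the killer cell from its own protease. It had 48.7 and 48.1 FPKM on the deficient diet and 69.8 and 51.4 FPKM on the normal diet. Its log2 change was -0.30 with a 95% interval from -0.80 to 0.20 (adjusted p = 0.418).

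**Figure D2:**
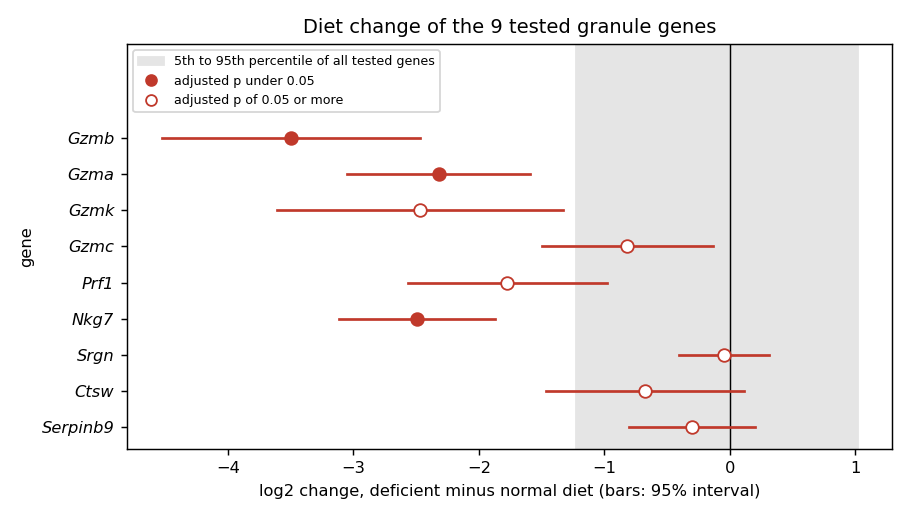
Log2 change of the 9 tested granule genes, deficient minus normal diet, with 95% intervals, filled where the limma adjusted p was under 0.05. The grey band spans the 5th to 95th percentile of all genes tested, from -1.22 to 1.02, and the points of Gzmb, Gzma, Gzmk, Prf1 and Nkg7 lie left of it.

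The makeup of the granule transcripts differed between the diets in every library. Ratios between genes of the same library do not depend on how that library was scaled. Per 100 FPKM of Srgn there were 11.4 and 13.2 FPKM of Gzmb in the deficient diet libraries, against 197.1 and 94.5 FPKM in the normal diet libraries. The 5 granzyme genes held 10.6% and 10.1% of the summed level of all 10 genes on the deficient diet and 44.9% and 34.6% on the normal diet. Srgn held 57.0% and 53.4% of it on the deficient diet and 19.3% and 28.5% on the normal diet.

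Perforin and granzyme B transcripts were not lower in the same proportion. Per 100 FPKM of Gzmb there were 25.6 and 29.4 FPKM of Prf1 on the deficient diet and 7.30 and 9.89 FPKM on the normal diet. Serpinb9 per 100 FPKM of Gzmb stood at 80.1 and 62.8 FPKM on the deficient diet, against 6.05 and 9.71 FPKM on the normal diet. Per 100 FPKM of Cd3e there were 12.3 and 10.9 FPKM of Gzmb on the deficient diet and 251.0 and 152.0 FPKM on the normal diet, a gap widened by the higher Cd3e on the deficient diet. Per 100 FPKM of Cd3d, which was lower there, there were 54.9 and 59.4 FPKM of Gzmb on the deficient diet and 745.4 and 410.6 FPKM on the normal diet. Set against the 10 T cell genes summed, Gzmb had 2.64 and 2.82 FPKM per 100 FPKM on the deficient diet and 42.4 and 24.4 FPKM on the normal diet. With 2 libraries against 2, an exact two-sided permutation test of a single ratio cannot go below a p of 1 in 3. These ratios are given as descriptions and were not tested.

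**Figure D3:**
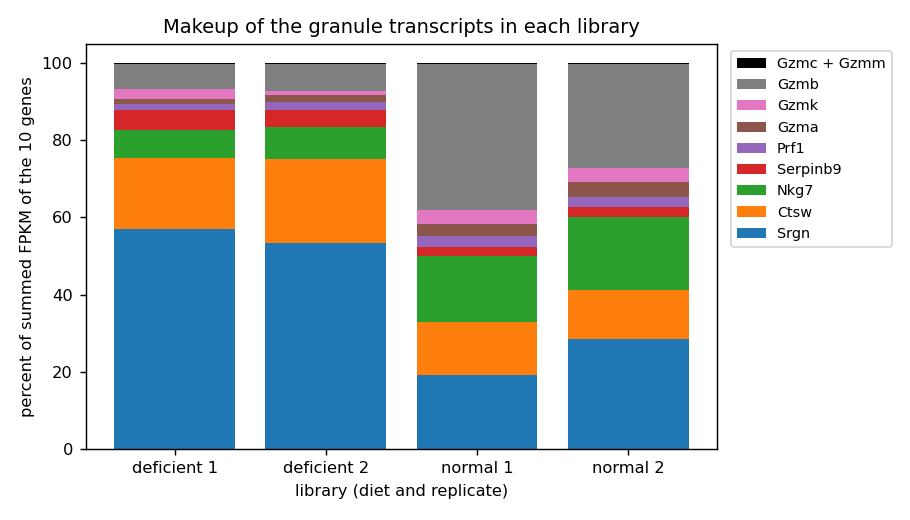
Percent of the summed FPKM of the 10 granule genes held by each gene, in bars for the 2 deficient diet and the 2 normal diet libraries. Srgn takes 57.0% and 53.4% of the bars of the deficient diet, and Gzmb takes 38.0% and 26.9% of the bars of the normal diet.

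None of the genes of granule transport and release passed, where 2.74% of all genes tested did. Of 30 such genes 29 were tested in limma, with a median log2 change of 0.084. An unadjusted p under 0.05 was found for 5 of the 29, against 22.8% of all genes tested. Both deficient diet libraries lay below both normal diet libraries in 6 and above both in 9. Over all genes tested these shares were 25.5% and 30.7%. The most abundant was Coro1a, an actin-binding protein gene, with 2878 and 3497 FPKM on the deficient diet and 3234 and 2770 FPKM on the normal diet. Calr, a chaperone gene, had 247.1 and 270.2 FPKM on the deficient diet and 331.7 and 355.8 FPKM on the normal diet. Lamp1, whose protein appears on the cell surface when granules fuse, had 211.7 and 208.0 FPKM on the deficient diet and 164.9 and 204.6 FPKM on the normal diet. M6pr, a receptor that sorts granzymes to the granule, and Sytl3, of a family that binds Rab27, had log2 changes of 0.19 and -0.14.

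A pair of genes in this list, chosen after their values were seen, lay at its ends. Sytl2, a partner of Rab27a in granule docking, had 10.5 and 7.00 FPKM on the deficient diet and 44.4 and 28.0 FPKM on the normal diet, a log2 change of -1.92 ± 0.31 (SE) and an adjusted p of 0.0541. Rab27a, the small GTPase of docking, had 94.2 and 87.7 FPKM on the deficient diet and 35.3 and 55.1 FPKM on the normal diet, a log2 change of 1.03 ± 0.24 (SE) and an adjusted p of 0.101. Neither passed in limma as described, and both passed without normal diet replicate 2 (adjusted p = 0.0394 for Sytl2 and 0.0425 for Rab27a). Sytl2 also passed with quantile normalization (0.0390), a filter of 5 FPKM (0.0461) and robust empirical Bayes (0.0430). In the other alternatives that kept every library Sytl2 did not pass (limma adjusted p = 0.0514 to 0.159). Rab27a passed in no alternative that kept every library (limma adjusted p = 0.0790 to 0.215).

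Of 4 other tested proteases none passed in limma, and 1 had an unadjusted p under 0.05. Over all genes tested, 2.74% passed and 22.8% had an unadjusted p under 0.05. Ctsc, the convertase that removes the leader dipeptide from granzymes, had 146.4 and 103.4 FPKM on the deficient diet and 96.3 and 156.1 FPKM on the normal diet, which overlap. Ctsd, a lysosomal aspartic protease gene, had 106.8 and 109.0 FPKM on the deficient diet and 213.3 and 172.5 FPKM on the normal diet (adjusted p = 0.0707). Ctsb and Ctsl, of lysosomal cysteine proteases, had log2 changes of 0.21 and 0.34.

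The protease inhibitors went both ways. Of 7 tested serpins and cystatins, 2 rose and 1 fell, where 1.22% of all genes tested were called higher and 1.53% lower. Serpinb6b, which encodes a mouse inhibitor of granzyme A, fell to 54.5 and 47.4 FPKM on the deficient diet, against 148.5 and 120.0 FPKM on the normal diet (log2 change -1.38 ± 0.17 SE, adjusted p = 0.0399). Serpinb1a, an inhibitor of neutrophil serine proteases, rose to 308.7 and 439.2 FPKM on the deficient diet, against 52.3 and 69.8 FPKM on the normal diet (log2 change 2.59 ± 0.24 SE, adjusted p = 0.0323). Its close copy Serpinb1b rose to 75.1 and 107.2 FPKM on the deficient diet, against 12.6 and 17.3 FPKM on the normal diet. The ratio of Serpinb1a to Serpinb1b was 4.11 and 4.10 in the deficient diet libraries and 4.14 and 4.04 in the normal diet libraries, and 92.5% of the 36-base words of Serpinb1a and 93.7% of those of Serpinb1b occur in no other gene. Reads of the shared words may be split between the copies, so their separate values are uncertain. Serpinb6b is the neighbour of Serpinb9 on chromosome 13 and Serpinb1b lies near them, so within this cluster there was a fall, a gene that did not pass and a rise. Cst7, the cystatin of cytotoxic granules, had 46.4 and 53.5 FPKM on the deficient diet and 100.2 and 70.0 FPKM on the normal diet and did not pass (adjusted p = 0.145). Cstb, a cystatin of the cytosol, had a log2 change of 0.60 (adjusted p = 0.107).

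**Figure D4:**
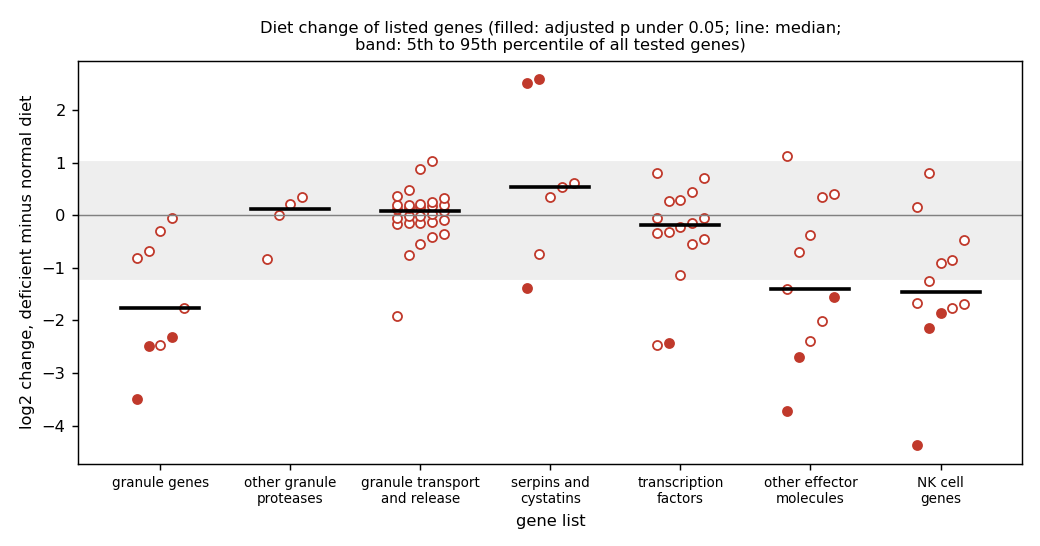
Log2 change, deficient minus normal diet, of the tested granule genes and of 6 lists of related genes, 1 point per gene, filled where the limma adjusted p was under 0.05, with a line at the median. The transport and release genes centre on 0.084, and the granule genes, other effector molecules and NK cell genes have medians of -1.77, -1.40 and -1.46.

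Of 16 tested genes in a list of transcription factors, not all of which drive killing, 1 fell and none rose. Over all genes tested, 1.53% were called lower and 1.22% higher. Tbx21, which encodes T-bet, an activator of granzyme and perforin genes, fell to 28.6 and 25.4 FPKM on the deficient diet, against 184.9 and 120.1 FPKM on the normal diet (log2 change -2.43 ± 0.24 SE, adjusted p = 0.0323). Eomes, a related T-box factor gene named after its values were seen, had 1.77 and 0.346 FPKM on the deficient diet and 10.9 and 8.70 FPKM on the normal diet and did not pass (adjusted p = 0.0547). The abundant Id2, Bhlhe40, Nfil3 and Klf2 did not pass, with log2 changes of 0.44, 0.28, 0.71 and -1.14. Per 100 FPKM of Tbx21 there were 212.7 and 302.0 FPKM of Gzmb on the deficient diet and 624.3 and 440.7 FPKM on the normal diet.

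Of 11 other effector molecules, 3 fell and none rose, against the same 1.53% called lower and 1.22% higher over all genes tested. Fasl, the death ligand that kills without granules, fell to 48.5 and 48.4 FPKM on the deficient diet, against 172.7 and 121.1 FPKM on the normal diet (adjusted p = 0.0419). Ifng, the gene of interferon gamma, fell by 3.73 and Ccl5, a chemokine gene, fell by 2.70 on the log2 scale (adjusted p = 0.0323 and 0.0354). Ltb and Tnf, cytokine genes of the tumour necrosis factor family, did not pass, with log2 changes of 0.35 and 0.41.

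Likeness was measured as the distance between log2 profiles over the 4 libraries, each centred on its own mean. Among 5192 other genes with a mean of at least 10 FPKM, the 4 most like Gzmb were Atp8a2, Gm14446, Ifng and Cd160, at distances of 0.401 to 0.516 log2 units. Those most like Prf1 were Gem, Ppp2r5a, H2-Q9, Samd3 and Nod1, at distances of 0.192 to 0.281 log2 units. With 4 libraries such distances describe these libraries only.

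Most tested genes in a list of natural killer cell genes lay lower on the deficient diet, as did Cd8a and Cd8b1. Bulk RNA does not show which cells carried these transcripts, so they are not assigned to natural killer cells here. Of the 12 tested genes of this list, 3 fell and none rose (1.53% of all genes tested were called lower). In 9 of the 12 both deficient diet libraries lay below both normal diet libraries, as they did for 25.5% of all genes tested. In Fcgr3 (log2 change 0.81), Tyrobp (0.16) and Fcer1g (-0.47), which myeloid cells also express, the diets overlapped. The 3 that fell were the receptor genes Klrd1, Klrc1 (log2 change -1.86) and Klre1 (-4.38). Klrd1 had 33.9 and 28.9 FPKM on the deficient diet and 166.8 and 121.4 FPKM on the normal diet. Klrk1 and Il2rb, the abundant genes of this list, had log2 changes of -1.25 and -0.84 and did not pass. The summed level of all 15 listed genes was 448.5 and 513.1 FPKM on the deficient diet and 1217 and 1028 FPKM on the normal diet. Of its defining genes, which were picked after their values were seen, Ncr1 had 0.173 and 0 FPKM on the deficient diet and 0.898 and 3.40 FPKM on the normal diet, and Klra8 rounded to 0 in both deficient diet libraries, against 0.085 and 0.635 FPKM on the normal diet. Klra4, not tested, was at or near 0 in every library. The sum of Cd8a and Cd8b1 was 14.2 and 15.4 FPKM on the deficient diet and 47.6 and 27.5 FPKM on the normal diet. The part of natural killer or CD8 T cells in the levels of the granule genes was not tested.

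Transcripts of the exocrine pancreas also separated the diets. The 8 acinar genes summed to 756.4 and 282.2 FPKM on the deficient diet and to 9449 and 2881 FPKM on the normal diet, and Cela2a, an elastase gene, fell to 99.7 and 54.1 FPKM on the deficient diet, against 2139 and 937.5 FPKM on the normal diet (adjusted p = 0.0365). The lipase gene Pnlip had 88.1 and 13.3 FPKM on the deficient diet and 2128 and 559.3 FPKM on the normal diet, and the chymotrypsinogen gene Ctrb1 had 268.0 and 98.3 FPKM on the deficient diet and 2012 and 413.1 FPKM on the normal diet, and neither passed. Between the normal diet libraries Cela2a was 2.28-fold and Gzmb 2.18-fold higher in replicate 1. Between the deficient diet libraries Gzmb was 1.26-fold higher in replicate 2, where Cela2a was lower. Whether acinar transcripts bear on the granule values was not tested. The sums of macrophage and neutrophil, B cell and hepatocyte genes were lowest in normal diet replicate 1 and highest in normal diet replicate 2, and their part in the granule values was not tested. The abundant myeloid genes Lyz2, S100a8 and S100a9 did not pass, with log2 changes of 0.77, 0.76 and 0.47. B cell genes summed to 45.7 and 35.9 FPKM on the deficient diet and to 24.5 and 107.6 FPKM on the normal diet, and hepatocyte genes to 85.8 and 50.2 FPKM on the deficient diet and to 21.0 and 132.7 FPKM on the normal diet. The 7 mast cell and basophil genes, which include granule proteases, summed to 5.59 and 0.992 FPKM on the deficient diet and to 1.52 and 18.7 FPKM on the normal diet. The 10 T cell genes summed to 2302 and 2715 FPKM on the deficient diet and to 2721 and 2169 FPKM on the normal diet. None of them passed in limma, where 2.74% of all genes tested did. An unadjusted p under 0.05 was found for 4 of the 10, against 22.8% of all genes tested.

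**Figure D5:**
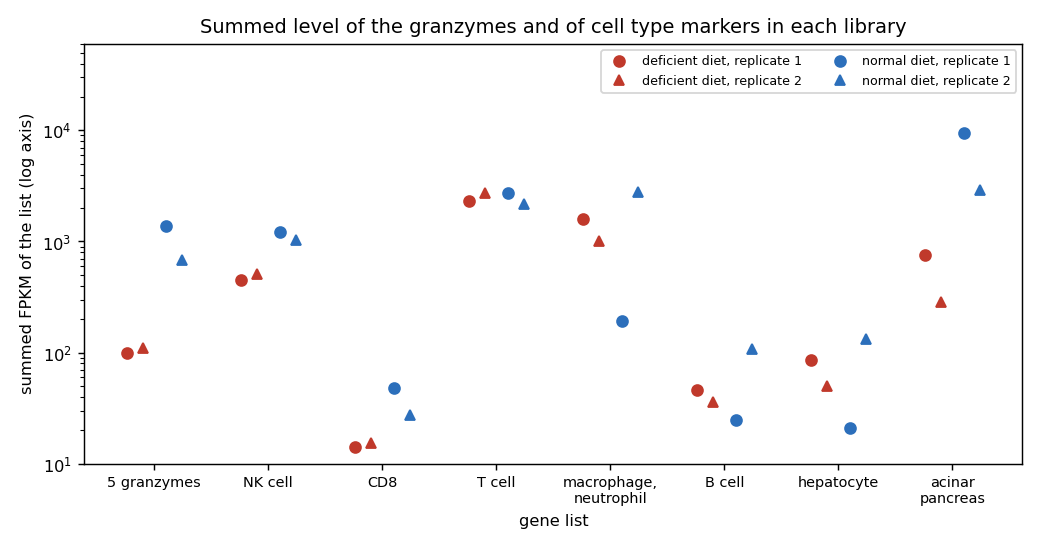
Summed FPKM, on a log axis, of the 5 granzyme genes and of lists of cell type genes in each library, deficient diet in red and normal diet in blue. Granzyme, NK cell, CD8 and acinar pancreas sums lie lower in both deficient diet libraries, and the T cell sums overlap between the diets.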

How the data were processed

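The deposited table holds 1 value per gene and library, and names no unit. The deposited values were taken as FPKM, being fractional, often far under 1, and adding up to 370112 to 389403 in a library; had they been TPM, each library would change by a constant factor. Alignment used Bowtie 0.12.2 and build mm8, per the submitters' processing notes. How genes were quantified, annotated or filtered is not stated in those sources. Read depth, and the precision it gives, is unknown.

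Columns were matched to samples by title and grouped by the diet label. log2(FPKM + 1) was fitted with limma 3.58.1 in R 4.3.3, using a mean-variance trend and no covariate beside diet (2 residual and 2.84 prior degrees of freedom), for the 10423 genes reaching 1 FPKM in 2 or more libraries, with Benjamini-Hochberg adjustment over them all. This scale understates changes of low genes. The limma step was run on simulated data with known changes. Gene spreads were shuffled among genes there, so that run cannot show how many calls are wrong in these data. The members, lists and tests were chosen with earlier results of these data known. Named were all members and, in each list, called genes and then the most abundant, up to 5 (for other cell types, called genes and the 3 most abundant); Sytl2, Rab27a, Eomes, Ncr1 and Klra8 were picked after their values were seen. Alternatives were other pseudocounts, filters, scalings and limma settings, a replicate block and leaving out each library. Promoter sequences and gene neighbours are from RefSeq (GRCm38.p6). For likeness, the rule named the 5 nearest genes to Gzmb and to Prf1; 1 of them is not reported here.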

Additional observations from a re-analysis of the deposited data

How the results depend on the processing

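The counts of genes called depended on the processing. Against 286 genes over the table, 3 granule genes and 0 transport and release genes with limma as described, quantile normalization gave 467, 5 and 1, limma without the trend 141, 1 and 0, robust empirical Bayes 432, 3 and 1, no filter 0, 0 and 0 (2712 genes at an unadjusted p under 0.05), and a filter of 5 FPKM 387, 3 and 1. Pseudocounts of 0.1 and 5 gave 215 and 321 genes and 3 granule genes each. With 1 library left out the counts ran from 0 to 352 genes, 0 to 4 granule genes and 0 to 2 transport and release genes. With the replicate number as a replicate block 0 genes passed in limma, with 1844 at an unadjusted p under 0.05, and 0 granule genes. Deviations of same-numbered libraries from their diet means correlated at -0.284 over genes. With 2 libraries a diet this compares 1 difference per diet, so it cannot settle whether the numbers pair the libraries. A crossed pairing, added after seeing the data, gave 52 genes and 3 granule genes. Of the 11 other genes named from the lists and called with limma as described, 9 no longer passed with it. Without the trend 4 of the 11 no longer passed, with robust empirical Bayes 1, and with no filter or with the block all 11. Genes named for likeness alone are not among these 11. Leaving out a library and the block leave fewer degrees of freedom. The causes of the differences in these counts were not tested.

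The log2 changes of some named genes that did not pass turned sign. With 1 library left out they ran from -0.11 to 0.013 for Srgn, -0.34 to 0.35 for Ctsc, -0.99 to 1.67 for Ctsl, -0.057 to 0.22 for Coro1a, -0.32 to 0.041 for Sytl3, -1.12 to 2.66 for Lyz2, -1.37 to 2.88 for S100a8 and -1.33 to 2.27 for S100a9. With quantile normalization Ctsc had -0.021 and Coro1a 0. Depth is unknown, so what it limits cannot be given.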
